A study of Mus musculus with 6 samples.

Results

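Transcripts of 8 secreted Wnt antagonists were followed in sorted mouse uterine cells: Sfrp1, Sfrp2, Sfrp4, Sfrp5, Frzb, Dkk1, Dkk2 and Dkk3. The labels call these cells endometrial epithelial cells. The genes were taken by symbol, as the secreted frizzled-related and dickkopf genes of the count table, which lists 26586 genes, and all 8 were found. Libraries labelled Axin2+ hold the GFP-positive cells and those labelled Axin2- the GFP-negative cells, with 3 libraries in each fraction. Mice of the strain Axin2rtTA; tetOH2BJGFP gave both fractions: the Axin2 promoter drives rtTA, which with doxycycline turns on a histone H2B-GFP fusion, so GFP reports promoter activity and not Axin2 protein. All mice had their ovaries removed at 4 weeks of age, rested for 2 weeks, received doxycycline and gave their uteri 4 days after it, at 6 weeks of age. The labels number the libraries by mouse (1 to 3) but also speak of pooled cells, and p-values measure only the spread between these libraries.

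Wnt proteins bind Frizzled receptors together with the co-receptors LRP5 and LRP6, which stabilises beta-catenin in the receiving cell. Secreted frizzled-related proteins carry a cysteine-rich domain like that of the Frizzled receptors and bind Wnt proteins outside the cell. Dickkopf proteins act lower down, since DKK1 and DKK2 bind LRP5 and LRP6, with Kremen proteins as partners, whereas DKK3 is the divergent member of the family. In the uterus, Wnt signals pass between stroma and epithelium, and antagonists limit their range.

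Each library held between 49714402 and 59597315 counts. The fraction labels and the tissue label were compared with marker transcripts. Axin2 itself stood at 165, 243 and 299 CPM (counts scaled to the TMM-adjusted depth of the library) in libraries labelled Axin2+ of mice 1, 2 and 3, against 369, 357 and 356 CPM in libraries labelled Axin2-. Its difference did not pass the test (log2 fold change -0.61 ± 0.21 SE, edgeR adjusted p = 0.0710), so all directions here follow the labels. Summed over 19 epithelial markers, the level was 3111 to 4259 CPM in libraries labelled Axin2+ and 259 to 389 CPM in libraries labelled Axin2-. The 19 stromal fibroblast markers summed to 4144 to 5920 CPM in libraries labelled Axin2+ and 13407 to 26699 CPM in libraries labelled Axin2-, although the labels call both fractions epithelial. The 15 smooth muscle and pericyte markers summed to 447 to 722 CPM in libraries labelled Axin2+ and 3477 to 8401 CPM in libraries labelled Axin2-. None of these markers was at 0 in a whole fraction. In such bulk samples, fewer cells of a type and less RNA per cell cannot be told apart.

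Every antagonist with enough reads to be tested was lower in libraries labelled Axin2+, and 5 of 6 passed the test: Sfrp4, Frzb, Dkk2, Sfrp1 and Dkk3. Sfrp2 did not pass. The threshold was an adjusted p of 0.05 over 16896 genes in edgeR's quasi-likelihood test, and 12.8 percent of all genes tested were called lower in libraries labelled Axin2+, 14.5 percent higher and 27.3 percent in either direction. With library-size scaling 9.31 percent were lower and 19.3 percent higher, and without mouse 2 it was 4.03 percent lower and 5.93 percent higher. In all 6 genes every library labelled Axin2+ lay below every library labelled Axin2-, which also held for 23.2 percent of the genes tested, while 23.9 percent lay wholly above. Log2 fold changes ran from -3.66 for Sfrp4 to -0.94 for Dkk3, beside a median of -0.01 over all genes tested. With library-size scaling in place of TMM, Dkk2, Sfrp1 and Dkk3 missed the threshold (edgeR adjusted p = 0.0638, 0.0544 and 0.0570), and with no filter on low counts Dkk2 and Sfrp1 did. Sfrp5 and Dkk1 had too few reads for the test.

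**Figure D1:**
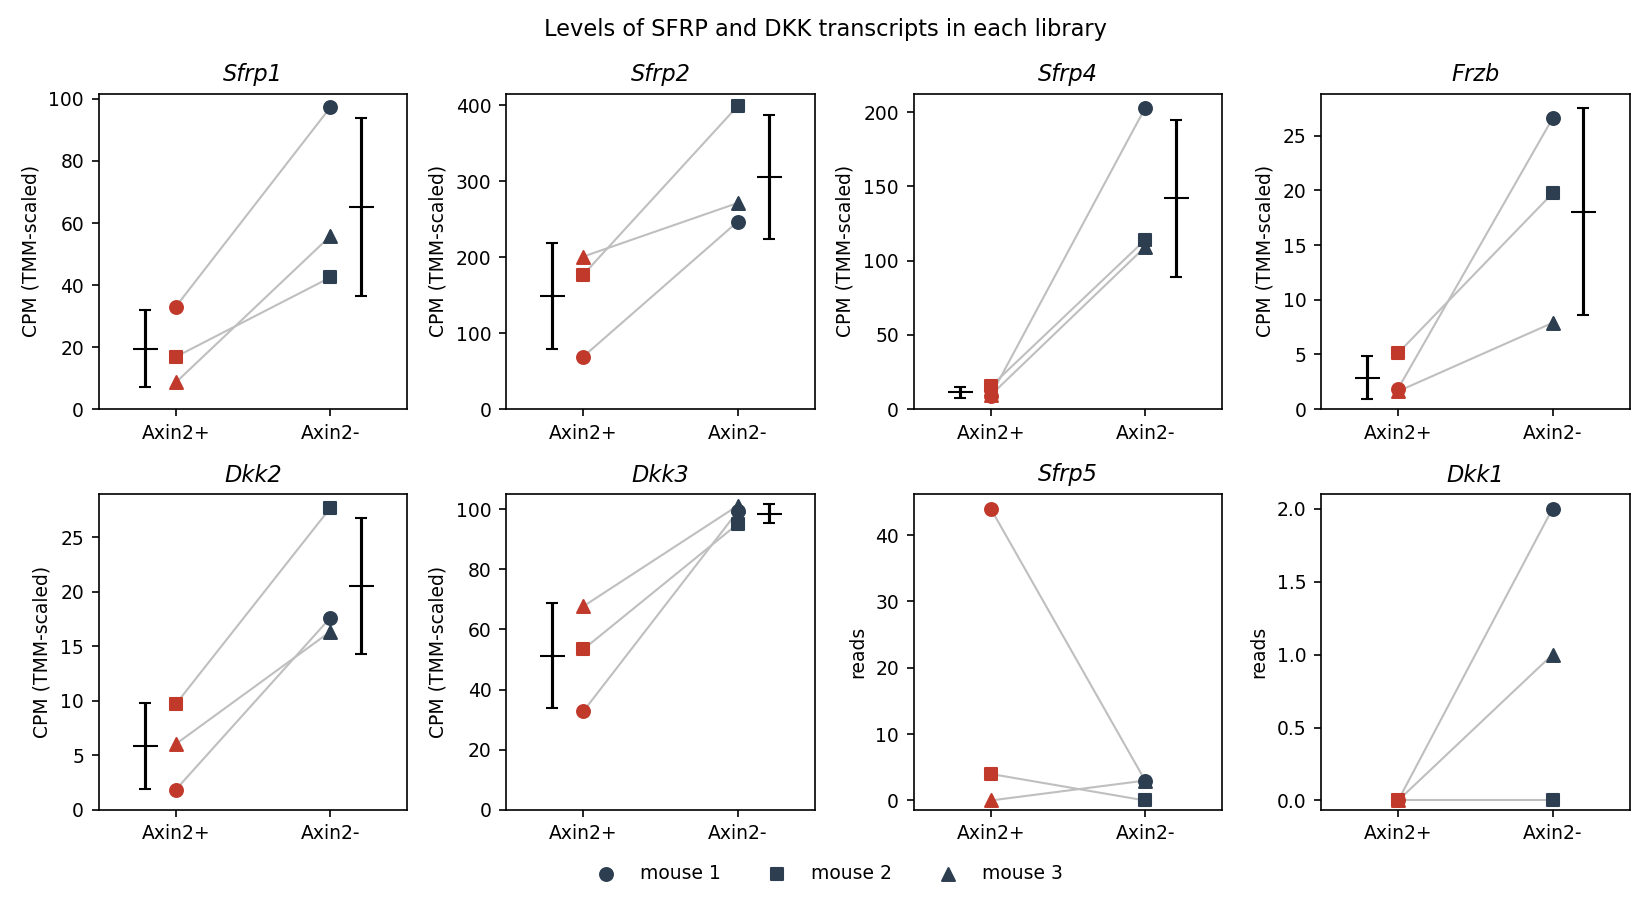
Level of each gene in each library, in TMM-scaled CPM for the 6 tested genes and in reads for Sfrp5 and Dkk1. Symbols mark the 3 mice, lines join the 2 libraries numbered for a mouse, and black bars give mean and SD. All 6 tested genes lie lower in libraries labelled Axin2+, and Sfrp5 reads come mostly from 1 library.

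Sfrp4, which encodes a Wnt-binding antagonist, differed most. The gene (ENSMUSG00000021319) lies on chromosome 13, from 19623104 to 19632994 on the plus strand of mm10, with 5 exons in its longest transcript. It stood at 9.11, 15.3 and 9.40 CPM in libraries labelled Axin2+ of mice 1, 2 and 3, against 203, 114 and 109 CPM in libraries labelled Axin2-. The lowest library labelled Axin2- was 7.13-fold above the highest library labelled Axin2+. The means were 11.3 ± 3.50 CPM in libraries labelled Axin2+ and 142 ± 52.7 CPM in libraries labelled Axin2- (SD, n = 3 libraries each), a log2 fold change of -3.66 ± 0.34 (SE), which is 12.6-fold lower (edgeR adjusted p = 0.000617). Of all genes tested, 1.17 percent had a lower log2 fold change. It passed the test under every setting tried, including each library or mouse left out. Mouse 1 also had the highest smooth muscle and stromal marker sums among libraries labelled Axin2- (8401 and 26699 CPM). Mice 2 and 3 had smooth muscle sums of 3477 and 6806 CPM there, beside 114 and 109 CPM of Sfrp4. Among libraries labelled Axin2+, Sfrp4 was highest in mouse 2 and the smooth muscle sum in mouse 3. The part of these cell types in the Sfrp4 level was not tested.

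Frzb, also known as Sfrp3, was the next in size. It (ENSMUSG00000027004) lies on chromosome 2, from 80411970 to 80447625 on the minus strand, with 6 exons. Its level was 1.88, 5.14 and 1.64 CPM in libraries labelled Axin2+ of mice 1, 2 and 3, against 26.6, 19.7 and 7.89 CPM in libraries labelled Axin2-. Within each fraction the libraries spread widely, by 3.14-fold among those labelled Axin2+ and 3.37-fold among those labelled Axin2-, but the fractions stayed apart. The log2 fold change was -2.65 ± 0.60 (SE), 6.26-fold lower (edgeR adjusted p = 0.0184). It was -3.36 without the mouse 2 library labelled Axin2+ and -3.29 without mouse 2. Frzb did not pass without the mouse 1 library labelled Axin2- (-2.24, edgeR adjusted p = 0.0582) or without mouse 1 (-2.01, edgeR adjusted p = 0.111).

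Sfrp1, an antagonist of the same subfamily as Sfrp2 and Sfrp5, had a pattern of its own across mice. Its gene (ENSMUSG00000031548) has 3 exons and lies on chromosome 8, from 23411502 to 23449632 on the plus strand. Its level was 33.1, 16.9 and 8.62 CPM in libraries labelled Axin2+ of mice 1, 2 and 3, against 97.3, 42.5 and 55.8 CPM in libraries labelled Axin2-. In both fractions mouse 1 gave the highest library. The gap between fractions was narrow, since the lowest library labelled Axin2- was 1.28-fold above the highest labelled Axin2+. The log2 fold change was -1.74 ± 0.51 (SE), 3.34-fold lower (edgeR adjusted p = 0.0439), and -2.35 without the mouse 1 library labelled Axin2+. The summed macrophage and immune markers of libraries labelled Axin2+ were highest in mouse 1 as well, at 3826, 2143 and 697 CPM in mice 1, 2 and 3, against 282, 69.4 and 378 CPM in libraries labelled Axin2-. Among libraries labelled Axin2+ the epithelial sum had the same order of mice, at 4259, 3717 and 3111 CPM. The mesothelial sum was also highest in mouse 1, at 488, 181 and 282 CPM. Across the fractions the immune and epithelial sums ran opposite to Sfrp1, while the mesothelial sums overlapped. The part of these cell types in the Sfrp1 level was not tested. The call rested on most of the libraries: edgeR adjusted p was 0.0524 to 0.152 when either library labelled Axin2+ of mice 2 and 3, any library labelled Axin2-, or mouse 2 or 3 was left out.

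Sfrp2 was the most abundant of the secreted frizzled-related and dickkopf genes. The gene (ENSMUSG00000027996, 3 exons) lies on chromosome 3, from 83766321 to 83774316 on the plus strand, and the annotated antisense gene Gm26771 overlaps it. The strand setting of the counting is not given in the sources used here, so reads of the pair cannot be told apart. Sfrp2 stood at 69.2, 177 and 201 CPM in libraries labelled Axin2+ of mice 1, 2 and 3, against 247, 399 and 271 CPM in libraries labelled Axin2-. In 3 of 3 mice the library labelled Axin2+ had the lower level, but by unequal amounts, with log2 ratios of -1.84, -1.17 and -0.43. The log2 fold change of -1.04 ± 0.39 (SE), with a 95% interval of -1.96 to -0.11, did not pass after adjustment (edgeR adjusted p = 0.0913). With the mouse as a block it was -1.15 and passed (edgeR adjusted p = 0.0447), and in DESeq2 it was -1.05 and passed (adjusted p = 0.0209).

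Sfrp5, which encodes the close relative of SFRP1 and SFRP2, was near the limit of detection. Its gene (ENSMUSG00000018822, 3 exons) lies on chromosome 19, from 42197971 to 42202252 on the minus strand. Libraries labelled Axin2+ of mice 1, 2 and 3 held 44, 4 and 0 reads, against 3, 0 and 3 reads in libraries labelled Axin2-. Mouse 1 thus gave 44 of the 48 reads of libraries labelled Axin2+, and the fractions overlapped. An exact two-sided permutation test of the CPM values gave p = 0.5, where 0.1 is the smallest p that 3 libraries against 3 allow.

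Among the dickkopf genes, Dkk3 had the least spread. Dkk3 (ENSMUSG00000030772) lies on chromosome 7, from 112116017 to 112159057 on the minus strand, with 8 exons. It stood at 32.7, 53.4 and 67.7 CPM in libraries labelled Axin2+ of mice 1, 2 and 3, against 99.3, 95.1 and 101 CPM in libraries labelled Axin2-. Libraries labelled Axin2- lay within 1.06-fold of each other, while those labelled Axin2+ spread 2.07-fold. The means were 51.3 ± 17.6 CPM in libraries labelled Axin2+ and 98.5 ± 3.11 CPM in libraries labelled Axin2- (SD, n = 3 libraries each), a log2 fold change of -0.94 ± 0.24 (SE) or 1.92-fold lower (edgeR adjusted p = 0.0285). It did not pass without the mouse 2 library labelled Axin2+, any library labelled Axin2-, or mouse 1 or 2 (edgeR adjusted p = 0.0574 to 0.148).

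Dkk2, whose protein binds LRP6 and can block or promote signalling in different settings, passed just inside the threshold. Its gene (ENSMUSG00000028031, 4 exons) lies on chromosome 3, from 132085292 to 132180304 on the plus strand. It stood at 1.85, 9.70 and 6.03 CPM in libraries labelled Axin2+ of mice 1, 2 and 3, against 17.6, 27.7 and 16.4 CPM in libraries labelled Axin2-. Mouse 2 was highest in both fractions, and libraries labelled Axin2+ spread 5.26-fold. The log2 fold change was -1.81 ± 0.56 (SE), 3.51-fold lower (edgeR adjusted p = 0.0493). It passed without the mouse 1 library labelled Axin2+ (-1.38, edgeR adjusted p = 0.0264) and without the mouse 2 library labelled Axin2+ (-2.38, edgeR adjusted p = 0.0390). It did not pass without the mouse 3 library labelled Axin2+, any library labelled Axin2-, or any mouse (edgeR adjusted p = 0.0538 to 0.164).

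Dkk1, the best known LRP6 antagonist and itself a target of beta-catenin in other tissues, was almost undetected. Its gene (ENSMUSG00000024868, 4 exons) lies on chromosome 19, from 30545863 to 30549665 on the minus strand. It had 0 reads in each of the 3 libraries labelled Axin2+, against 2, 0 and 1 reads in libraries labelled Axin2- of mice 1, 2 and 3. A count of 0 allows up to 3 reads, or 0.0518 to 0.0566 CPM in libraries labelled Axin2+, counting error only. No difference was detectable at this depth.

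Per length of transcript, Sfrp2 led in both fractions. In RPKM (CPM per kilobase of annotated exon) it stood at 69.2 ± 32.6 in libraries labelled Axin2+ and 142 ± 37.96 in libraries labelled Axin2- (SD, n = 3 each). In libraries labelled Axin2+ it was followed by Dkk3 (15.3 ± 5.23 RPKM), Sfrp1 (4.46 ± 2.84), Sfrp4 (2.70 ± 0.84), Dkk2 (1.58 ± 1.06), Frzb (0.891 ± 0.603) and Sfrp5 (0.146 ± 0.220). The ranges of Sfrp1 and Sfrp4, of Sfrp4 and Dkk2 and of Dkk2 and Frzb overlapped there. In libraries labelled Axin2- the order was Sfrp2, Sfrp4 (34.0 ± 12.6 RPKM), Dkk3 (29.3 ± 0.925), Sfrp1 (14.9 ± 6.53), Frzb (5.58 ± 2.92) and Dkk2 (5.55 ± 1.68), with Sfrp5 and Dkk1 far below. Sfrp4 and Dkk3 overlapped there, with Sfrp4 above Dkk3 in 1 of 3 libraries, and so did Frzb and Dkk2.

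In the mix of antagonists, Sfrp4, Frzb and Dkk2 took a smaller share in the library labelled Axin2+ of each mouse. Sfrp2 and Dkk3 took a larger share there. Summed over the 8 genes, the level was 53.1, 110 and 120 RPKM in libraries labelled Axin2+ of mice 1, 2 and 3, against 228, 264 and 202 RPKM in libraries labelled Axin2-. Sfrp4 made up 4.11, 3.33 and 1.88 percent of that sum in libraries labelled Axin2+, against 21.3, 10.3 and 12.9 percent in libraries labelled Axin2-, and the fractions did not overlap. Sfrp2 made up 60.5, 74.8 and 77.9 percent in libraries labelled Axin2+, against 50.3, 70.1 and 62.4 percent in libraries labelled Axin2-, and the fractions overlapped. The mean share differed by -11.7 percentage points for Sfrp4 and by 10.1 percentage points for Sfrp2 (Axin2+ minus Axin2-). For Dkk3, Frzb and Dkk2 it differed by 3.68, -1.38 and -0.81 percentage points. The ratio of Sfrp2 to Sfrp4 in RPKM was 14.7, 22.4 and 41.5 in libraries labelled Axin2+ and 2.36, 6.79 and 4.82 in libraries labelled Axin2-. The SFRP genes together held 80.7 to 83.2 percent of the sum in libraries labelled Axin2+ and 82.9 to 86.5 percent in libraries labelled Axin2-, with the DKK genes as the remainder. These shares are descriptions and were not tested. The share of any gene lowered less than the sum rises.

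**Figure D2:**
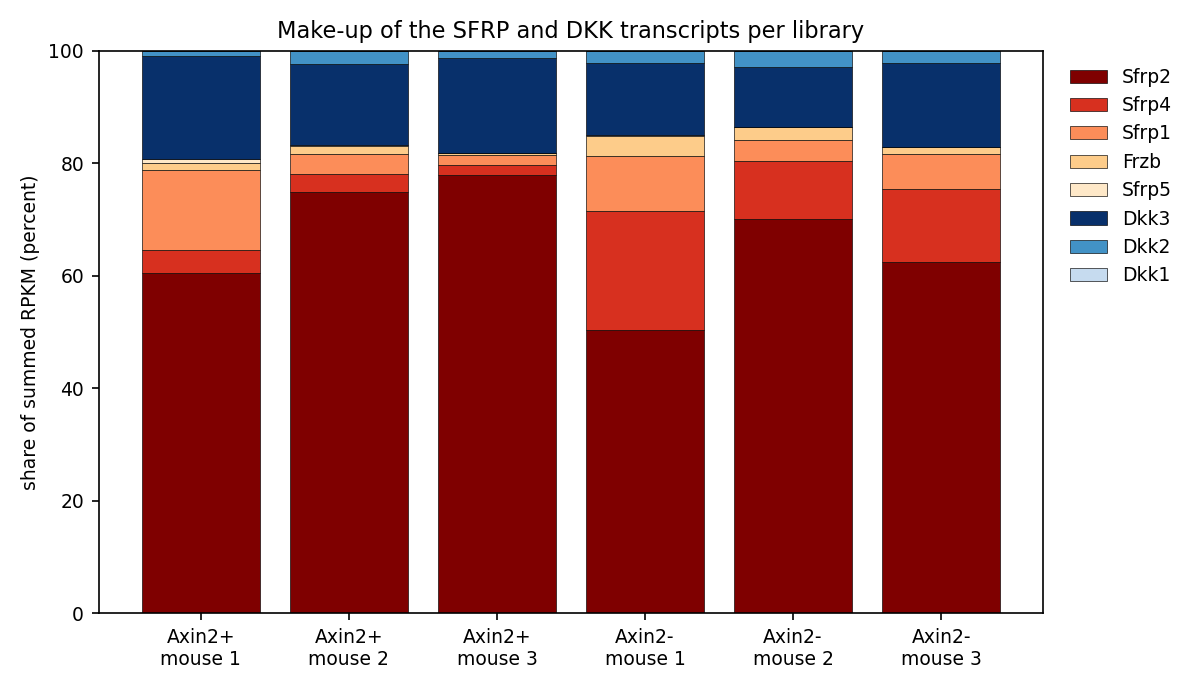
Share of each gene in the summed RPKM of the 8 genes, in percent, for each of the 6 libraries. Sfrp2 is the largest part in all 6, and Sfrp4 takes 1.88 to 4.11 percent in libraries labelled Axin2+ and 10.3 to 21.3 percent in libraries labelled Axin2-.

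Promoter sequences were compared because 6 of the genes were lower in the same libraries while Sfrp5 and Dkk1 were near 0. RefSeq sequences (GRCm38.p6, the build of mm10) from 250 bases before to 50 bases after the start were at hand for 5 of the 8 genes: Sfrp2, Sfrp5, Frzb, Dkk1 and Dkk2. Those of the most abundant gene, of a gene called lower and of a gene near 0 are shown 5′ to 3′. Capitals mark matches on either strand to the TCF/LEF motif CTTTGAA and its variants that end in AT, TA or TT. They also mark the GC box, spelled GGGCGG, and the TATA box, spelled TATAAA. No match overlaps another in these windows.
Sfrp2 (chr3:83766071-83766370, plus strand): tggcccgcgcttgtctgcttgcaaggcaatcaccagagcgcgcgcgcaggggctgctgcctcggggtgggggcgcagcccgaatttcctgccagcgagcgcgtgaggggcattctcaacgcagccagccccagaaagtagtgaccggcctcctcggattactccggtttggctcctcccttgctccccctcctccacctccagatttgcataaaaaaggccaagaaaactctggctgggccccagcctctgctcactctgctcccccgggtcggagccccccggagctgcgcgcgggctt
Dkk2 (chr3:132085042-132085341, plus strand): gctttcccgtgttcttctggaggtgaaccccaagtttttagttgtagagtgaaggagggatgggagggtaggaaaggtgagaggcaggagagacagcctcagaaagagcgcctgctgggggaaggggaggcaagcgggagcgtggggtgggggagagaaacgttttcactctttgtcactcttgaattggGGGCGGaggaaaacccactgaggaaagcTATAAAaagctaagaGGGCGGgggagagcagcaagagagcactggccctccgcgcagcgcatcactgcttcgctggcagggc
Sfrp5 (chr19:42202203-42202502, minus strand): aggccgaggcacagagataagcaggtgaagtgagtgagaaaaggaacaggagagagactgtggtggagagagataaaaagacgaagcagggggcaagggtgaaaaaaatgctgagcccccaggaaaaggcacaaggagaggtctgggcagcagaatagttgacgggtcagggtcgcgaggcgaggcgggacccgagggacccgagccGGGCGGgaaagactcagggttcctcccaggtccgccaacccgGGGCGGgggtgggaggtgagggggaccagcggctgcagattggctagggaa
The RefSeq starts of these 3 genes are those of the GENCODE coordinates given above, whereas those of Dkk1 and Frzb lie 169 and 229 bases inside the GENCODE genes. The Dkk1 window held 2 TCF/LEF matches, 117 and 98 bases before its RefSeq start, and a TATA box, all inside the gene as GENCODE places it. The windows of Sfrp2, Sfrp5, Frzb and Dkk2 held no TCF/LEF match. Dkk2 had 2 GC boxes and a TATA box, Sfrp5 had 2 GC boxes, Frzb had 1, also inside its GENCODE gene, and Sfrp2 matched none of the 3 motifs. Of 32851 promoters of the same length, 16.9 percent held the TCF/LEF motif, 35.7 percent the GC box and 13.6 percent the TATA box. The CpG dinucleotides numbered 22 in Sfrp2, 20 in Frzb, 15 in Sfrp5, 11 in Dkk2 and 9 in Dkk1, beside a median of 7 over all promoters. These matches are descriptions of the sequence and say nothing of binding.

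The genes did not share 1 pattern across libraries. The difference between patterns was measured as the root mean square difference of log2(CPM + 1) over the 6 libraries, each gene centred on its own mean. Dkk3 and Sfrp2 were the most alike pair at 0.32, followed by Dkk2 and Sfrp2 at 0.42. Sfrp2 and Dkk3 were lowest in the mouse 1 library labelled Axin2+, but so were Dkk2 and Sfrp4. Sfrp2 and Sfrp4 were the least alike at 1.34. Among 11082 other genes, those closest to Sfrp2 were Apcdd1 (0.07), Glrb (0.09) and P2ry14 (0.10). Closest to Dkk3 were Gprasp2 (0.08), Cnrip1 (0.08) and Shf (0.09), and closest to Dkk2 were Npr3 (0.13), G0s2 (0.24) and Tspan11 (0.24). Closest to Sfrp1 were Gfra2, Ptgir and Figf (each 0.20), closest to Sfrp4 were Cntn1 (0.31), Smoc1 (0.37) and Tnnt3 (0.41), and closest to Frzb were Oxtr (0.33), Kcnn3 (0.37) and Ramp1 (0.44). Apcdd1, a membrane-bound Wnt inhibitor, stood at 57.2, 139 and 169 CPM in libraries labelled Axin2+ of mice 1, 2 and 3, against 211, 311 and 199 CPM in libraries labelled Axin2-. Its log2 fold change of -0.98 missed the threshold (edgeR adjusted p = 0.102).

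The cell type markers were set beside these patterns. Of 19 stromal fibroblast markers 16 were called lower and 0 higher in libraries labelled Axin2+ (median log2 fold change -1.87), and of 15 smooth muscle and pericyte markers 13 were lower and 0 higher (median -2.89). Acta2, the smooth muscle actin, averaged 23.7 ± 2.02 CPM in libraries labelled Axin2+ and 707 ± 294 CPM in libraries labelled Axin2- (SD, n = 3 each). Of 19 epithelial markers 19 were higher (median 3.46), with Epcam at 227 ± 25.03 CPM in libraries labelled Axin2+ and 12.4 ± 5.45 CPM in libraries labelled Axin2-. Of 12 endothelial markers 7 were higher and 0 lower, of 12 macrophage and immune markers 8 were higher and 3 lower, and of 7 mesothelial markers 4 were higher and 1 lower. With the mouse as a block the endothelial markers gave 3 higher and 1 lower, and the immune markers 3 higher and 3 lower. The stromal count was 8 without mouse 1, 9 without the mouse 2 library labelled Axin2+ and 10 without the mouse 1 or the mouse 3 library labelled Axin2-. The endothelial count was 4 without the mouse 2 library labelled Axin2-, 3 without the mouse 2 library labelled Axin2+, the mouse 3 library labelled Axin2- or mouse 3, and 1 without mouse 2. The immune count was 7 without the mouse 1 library labelled Axin2+ or mouse 3, and 4 without the mouse 2 library labelled Axin2+ or the mouse 3 library labelled Axin2-. Without mouse 1 it was 2 lower and 0 higher, and without the mouse 1 library labelled Axin2- or without mouse 2 it was 1 lower and 0 higher. The mesothelial count was 1 lower and 0 higher without mouse 3. Log2 fold changes of Sfrp4 and Frzb lay below the stromal median, and those of Dkk3, Sfrp2, Sfrp1 and Dkk2 lay above it. Dkk2 (-1.81 ± 0.56 SE) and Sfrp1 (-1.74 ± 0.51 SE) were each within their SE of that median. Only Sfrp4 lay below the smooth muscle and pericyte median, and Frzb (-2.65 ± 0.60 SE) was within its SE of it. Sfrp4 came to 0.183, 0.370 and 0.159 percent of the summed stromal CPM in libraries labelled Axin2+ of mice 1, 2 and 3, against 0.760, 0.850 and 0.500 percent in libraries labelled Axin2-. Dkk3 came to 0.657, 1.29 and 1.14 percent in libraries labelled Axin2+, against 0.372, 0.709 and 0.463 percent in libraries labelled Axin2-. On this scale, which was not tested, 3 of 3 mice had more Dkk3 and Sfrp2 in the library labelled Axin2+ than in that labelled Axin2-, while 0 of 3 had more Sfrp4 or Frzb there. For Sfrp1 and for Dkk2 it was 2 of 3 mice. Without regard to mouse, the fractions overlapped for all of these but Sfrp4. Collagens weigh on the sum: Col3a1 alone stood at 6913, 1260 and 4873 CPM in libraries labelled Axin2- of mice 1, 2 and 3. Any gene lowered less than the sum is raised on this scale, also a listed stromal marker such as Vim (log2 fold change -0.40). A higher value on it is thus not particular to Dkk3 and Sfrp2. The part of stromal and muscle RNA in the differences of the antagonists was not tested.

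**Figure D3:**
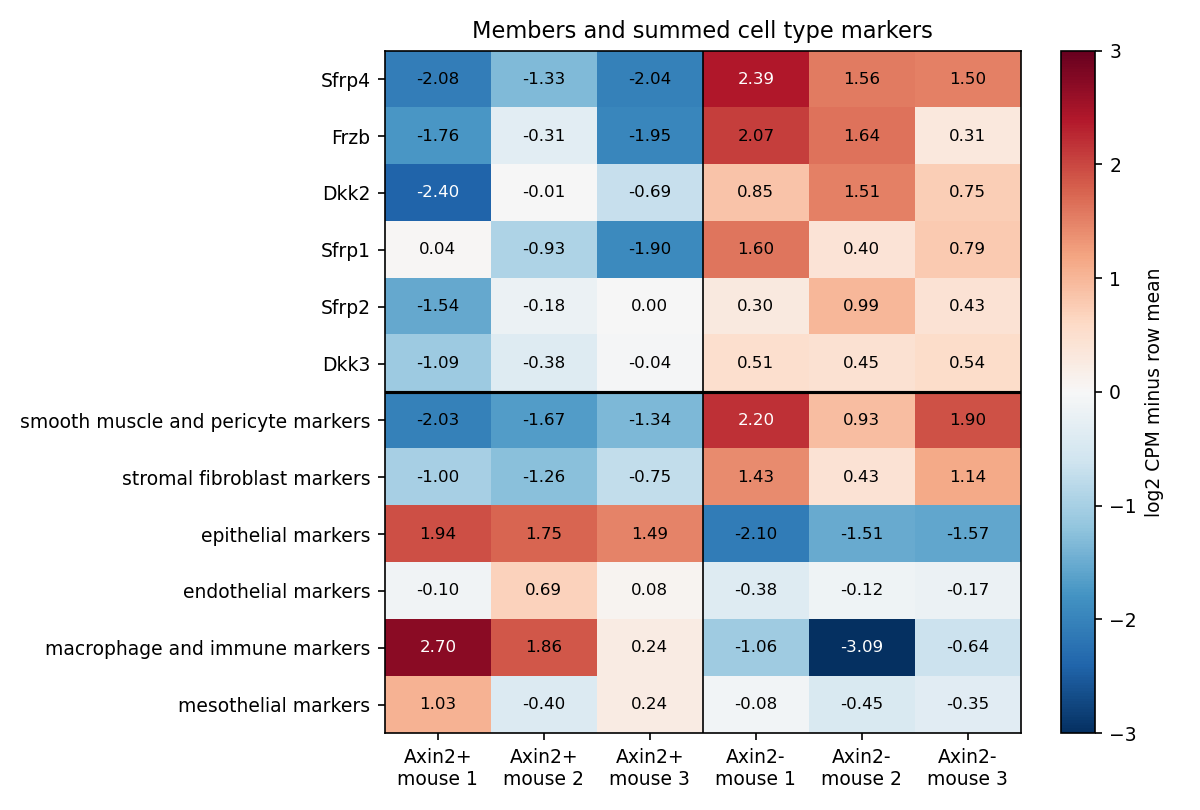
Log2 CPM minus the row mean over the 6 libraries, for the 6 tested antagonists and for summed markers of 6 cell types. The antagonists and the stromal and smooth muscle sums are lower in libraries labelled Axin2+. The epithelial, macrophage and immune, and endothelial sums are higher there, and the mesothelial sums overlap.

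The receptors on which these antagonists act did not move one way. Of 13 tested Frizzled, LRP and Kremen genes, 4 were called lower (Fzd1, Fzd2, Fzd7 and Lrp6) and 3 higher (Fzd6, Fzd10 and Lrp5) in libraries labelled Axin2+, with a median log2 fold change of 0.10. Over all genes tested, 12.8 percent were called lower and 14.5 percent higher. The receptor Fzd6 averaged 117 ± 18.7 CPM in libraries labelled Axin2+ and 17.9 ± 2.56 CPM in libraries labelled Axin2- (SD, n = 3 each). Fzd10 averaged 87.7 ± 23.4 CPM in libraries labelled Axin2+ and 6.52 ± 2.88 CPM in libraries labelled Axin2-, whereas Fzd7 averaged 44.3 ± 1.66 CPM in libraries labelled Axin2+ and 132.5 ± 13.6 CPM in libraries labelled Axin2-. The DKK co-receptors split: Lrp5 was higher (log2 fold change 1.04 ± 0.14 SE, edgeR adjusted p = 0.00209) and Lrp6 lower (-0.64 ± 0.13 SE, edgeR adjusted p = 0.0117). Kremen1 stood at 70.5 ± 4.48 CPM in libraries labelled Axin2+ and 76.9 ± 8.39 CPM in libraries labelled Axin2- and did not pass (edgeR adjusted p = 0.484). Without mouse 2, 1 of the receptor genes was lower and 3 were higher.

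Of 8 other tested antagonists outside the cell, Igfbp4 and Sost were lower and Wif1 was higher in libraries labelled Axin2+ (median log2 fold change -0.48). These 3 calls stand beside 27.3 percent of all genes called in either direction, and nothing particular to the list is read from them. Without mouse 1, and likewise without mouse 2, 0 of them were called lower and 1 higher. Wif1, which binds Wnt proteins through a domain unrelated to Frizzled, had 1471 reads in libraries labelled Axin2+ and 1 in libraries labelled Axin2-, a ratio of 1404 (95% counting interval 252 to 55511). Sost, an LRP5 and LRP6 antagonist best known in bone, had 1 read in libraries labelled Axin2+ and 76 in libraries labelled Axin2-, a ratio of 0.0126 whose 95% counting interval was 0.000314 to 0.0721. Igfbp4, an IGF-binding protein that can also block LRP6, averaged 648 ± 226 CPM in libraries labelled Axin2+ and 1342 ± 346 CPM in libraries labelled Axin2- (SD, n = 3 each).

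The ligands and the target genes had calls in both directions, as did all genes tested (12.8 percent lower and 14.5 percent higher). Of 13 tested Wnt ligands 4 were higher (Wnt7a, Wnt7b, Wnt11 and Wnt2b) and 4 lower (Wnt5b, Wnt6, Wnt9a and Wnt10a) in libraries labelled Axin2+. Wnt7a, the ligand of the luminal epithelium, averaged 71.3 ± 24.7 CPM in libraries labelled Axin2+ and 5.04 ± 2.34 CPM in libraries labelled Axin2- (SD, n = 3 each), whereas Wnt5b averaged 6.51 ± 0.632 CPM in libraries labelled Axin2+ and 17.2 ± 4.05 CPM in libraries labelled Axin2-. In DESeq2 8 ligands were lower and 4 higher. The ligand count was 2 without mouse 1 and 3 without mouse 2, without the mouse 2 library labelled Axin2+ or without the mouse 1 library labelled Axin2-. It was 5 without the mouse 2 or the mouse 3 library labelled Axin2-. Of 14 beta-catenin target genes 5 were higher (Ccnd1, Lgr5, Rnf43, Sp5 and Znrf3) and 3 lower (Myc, Nkd1 and Nkd2), and 5 in all were called without mouse 2. In DESeq2 6 targets were lower and 5 higher. Sp5, a transcription factor induced by Wnt, averaged 10.06 ± 2.90 CPM in libraries labelled Axin2+ and 0.373 ± 0.232 CPM in libraries labelled Axin2-.

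**Figure D4:**
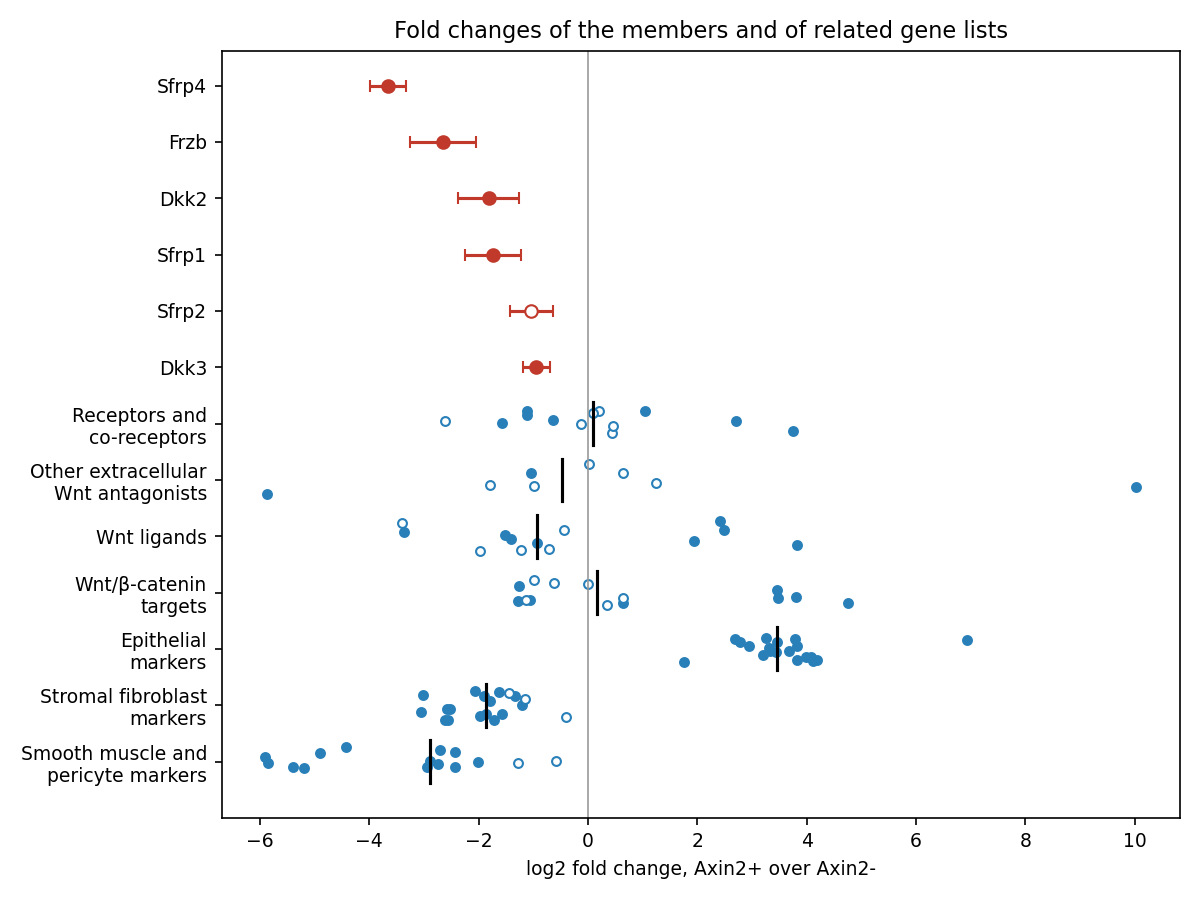
Log2 fold changes, Axin2+ over Axin2-, of the 6 tested antagonists (red, bars are SE) and of the tested genes of 7 related lists (blue, black line is the median). Filled points passed the edgeR test, and the extreme points of the other antagonists are Wif1 and Sost, which rest on 1 read in a fraction. The antagonists lie between -3.66 and -0.94.

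In the authors' deposited table the log2 fold changes (Axin2+ over Axin2-) were -3.66 for Sfrp4, -2.66 for Frzb, -1.82 for Dkk2, -1.75 for Sfrp1, -1.04 for Sfrp2 and -0.95 for Dkk3. The FDR in the authors' deposited table was 0.0836 for Sfrp2 and between 0.000627 and 0.0450 for the other 5 genes, while Sfrp5 and Dkk1 are not listed there.

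**Figure D5:**
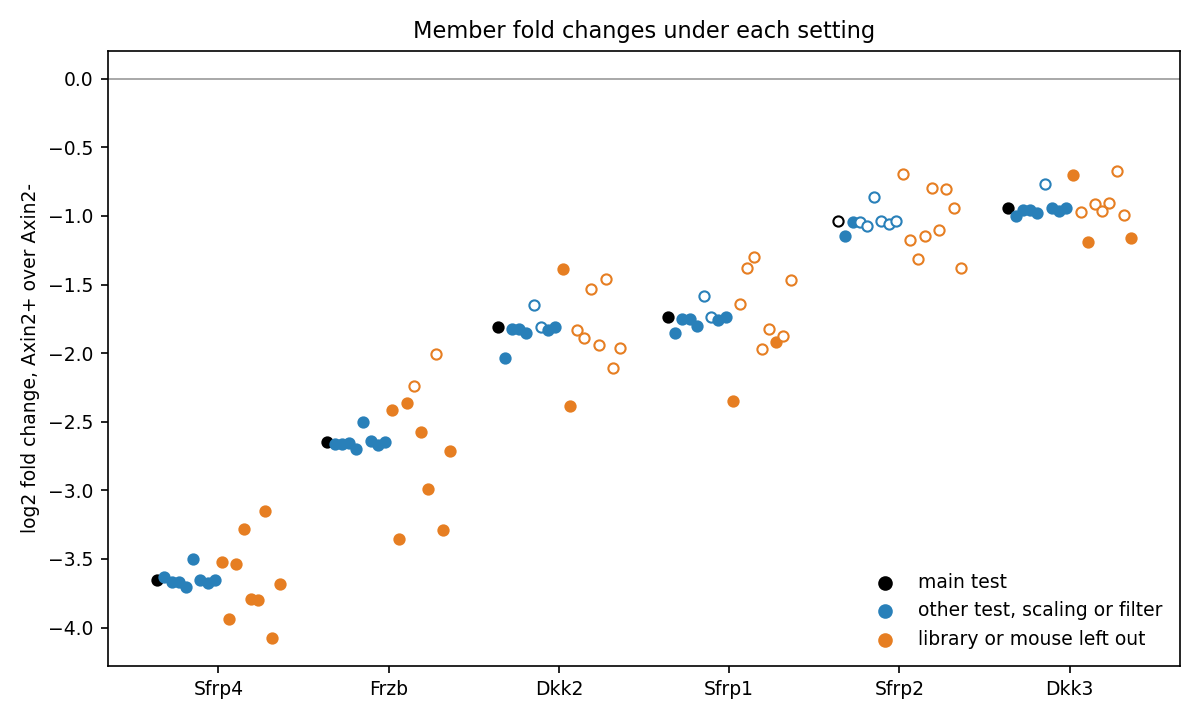
Log2 fold change of each tested antagonist, Axin2+ over Axin2-, under each test, scaling, filter, library or mouse left out. Filled points passed an adjusted p of 0.05. Every value is below 0, and Sfrp4 is filled under every setting.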

How the data were processed

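RNA of sorted uterine cells was depleted of ribosomal RNA (Ribo-Zero Gold) and sequenced, per the labels' protocols. The deposited table holds whole-number counts of reads for each gene and library. The submitters' processing notes name STAR 2.5.3a, featureCounts 1.5.3, StringTie 1.3.3, edgeR 3.22.5 and mm10. For the annotation version and the strand setting, nothing is given in the sources used here. The authors' deposited comparison table gives log2 fold changes, p-values and FDR values per gene.

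The counts were fitted with edgeR 4.0.16 (R 4.3.3): filterByExpr left 16896 genes, with TMM scaling, a robust quasi-likelihood F test between fractions and Benjamini-Hochberg adjustment over all of them. The SE is the log2 fold change over the square root of F. DESeq2 1.42.0, other scalings and filters, the mouse as a block, and leaving out libraries or mice were alternatives. The test was run on simulated counts with 50 genes changed at each size. It recovered 0 percent of 1.5-fold, 14 percent of 2-fold, 62 percent of 4-fold and 90 percent of 8-fold changes. Only 200 of 16580 genes were changed there, whereas 27.3 percent of genes were called in the data. The adjustment was thus stricter in the simulation, and these rates need not hold for the data. A gene that did not pass can still differ. No 2 libraries of a fraction agreed within sampling noise (lowest chi-square per degree of freedom 59.7). The pairing by mouse follows the numbers in the labels, which also speak of pooled cells. Across genes, what each library added to its fraction mean correlated at 0.27, 0.01 and -0.07 within mice 1, 2 and 3. Between libraries of different numbers it was -0.24 to 0.25, so these correlations do not set the numbered pairs apart.

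Coordinates and exon lengths come from GENCODE M21 (GRCm38). Of 143 listed entries in 10 lists, 141 were found by symbol and 2 by an older one, and Wnt7a, Notum and Apcdd1 stand in 2 lists each. Named genes are the 8 antagonists, Axin2, Epcam, up to 4 genes per list with the smallest p among those past the threshold, and the 3 genes closest in pattern to each tested antagonist with a mean of at least 5 CPM. The members and lists were chosen with earlier results of these data known, and genes named beyond the rule were chosen after their values were seen. A planned comparison of protein sequences was not made.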

Additional observations from a re-analysis of the deposited data

How the results depend on the processing

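Sfrp4, Frzb, Dkk2, Sfrp1, Sfrp2 and Dkk3 were lower in libraries labelled Axin2+ under all 17 other settings. Sfrp4 passed in all of them, with log2 fold changes of -4.07 to -3.15. Library-size scaling moved the median of all genes from -0.01 to 0.16, and with it Dkk2 (-1.65), Sfrp1 (-1.59) and Dkk3 (-0.77) did not pass; relative to that median they lay at about the same distance. With no filter on low counts Dkk2 (-1.81, adjusted p = 0.0665) and Sfrp1 (-1.73, adjusted p = 0.0738) did not pass. Sfrp2 passed in DESeq2 (-1.05) and with the replicate block (-1.15), which changed no other call of the 6 genes. With a library or a mouse left out the log2 fold change was -3.36 to -2.01 for Frzb, -2.38 to -1.38 for Dkk2, -2.35 to -1.30 for Sfrp1, -1.38 to -0.69 for Sfrp2 and -1.19 to -0.67 for Dkk3. The genes called over the whole table numbered 4618, and 1711 to 4114 with a library or mouse left out. The listed genes called numbered 96, and 61 to 95 with a library or mouse left out. Fewer libraries leave fewer degrees of freedom, but the cause of the lower counts was not tested. In the fit with no filter Sfrp5 had a log2 fold change of 2.75 (edgeR adjusted p = 0.332) and Dkk1 of -3.23 (edgeR adjusted p = 0.347). With longest-transcript lengths all 8 genes kept their place in the order by RPKM in each fraction. Depth limits what can be said of Sfrp5 and Dkk1. Counting intervals cover counting error only, as the reads carry no molecular identifiers and so do not stand for separate molecules.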

Other observations

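The remaining dickkopf family genes of the table were low. Dkk4 had 0 reads in all 6 libraries. Dkkl1, a dickkopf-like gene best known from testis, had 14, 48 and 29 reads in libraries labelled Axin2+ of mice 1, 2 and 3, against 4, 2 and 29 reads in libraries labelled Axin2-. The fractions overlapped, and it did not pass, with a log2 fold change of 1.25 ± 1.11 (SE) (edgeR adjusted p = 0.439). Kremen2, the second Kremen gene, stood at 0.0345, 0.340 and 0.0931 CPM in libraries labelled Axin2+ of mice 1, 2 and 3, against 0.622, 1.35 and 0.906 CPM in libraries labelled Axin2-. Its fractions did not overlap, as in 23.2 percent of all genes tested, and it did not pass, with a log2 fold change of -2.61 ± 0.90 (SE) (edgeR adjusted p = 0.0698). Notum, a secreted enzyme that inactivates Wnt proteins, averaged 24.1 ± 8.79 CPM in libraries labelled Axin2+ and 15.3 ± 6.08 CPM in libraries labelled Axin2- (SD, n = 3 each) and did not pass (edgeR adjusted p = 0.235).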
